A study of Mus musculus with 20 samples.

Results

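Transcripts of 9 enzymes of serine synthesis and folate-dependent one-carbon metabolism were measured by RNA-seq in p19/Nras cells: Phgdh, Psat1, Psph, Shmt1, Shmt2, Mthfd1, Mthfd1l, Mthfd2 and Aldh1l2. The genes were listed by symbol, and all 9 are present in both count tables, as 9 of 13107 genes in the Myc experiment and 9 of 11210 genes in the HU experiment. p19/Nras is a murine liver cancer line from a tumor driven by Nras on a p19/Arf-null background, so both alterations are common to all 10 groups. In the Myc experiment, Trim33-WT cells (sgCtrl) and the CRISPR lines Trim33-KO1 and Trim33-KO2 (sgTrim33) carried a pWZL Ctrl vector or a vector for Myc, which gives the groups WT Ctrl, KO1 Ctrl, KO2 Ctrl, WT Myc, KO1 Myc and KO2 Myc. In the HU experiment, Trim33-WT (sgCtrl) and Trim33-KO (sgTrim33) cells received vehicle, called untreated here, or 1 mM hydroxyurea (HU) for 4 hours, which depletes deoxynucleotides and stalls replication forks. Whether the KO cells of the HU experiment are KO1, KO2 or another line is not given in the labels. Each group has 2 libraries, and nothing in the labels says that they come from separate cultures, so the p-values measure the spread between these libraries, which may be technical.

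Serine is made from a glycolytic intermediate in a short chain of reactions. Phgdh oxidizes 3-phosphoglycerate, Psat1 transfers an amino group and Psph removes the phosphate. Serine hydroxymethyltransferases, Shmt2 in mitochondria and Shmt1 in the cytosol, then move a carbon unit from serine to tetrahydrofolate. In mitochondria this unit is oxidized by Mthfd2 and released as formate by Mthfd1l, or burned to carbon dioxide by Aldh1l2. In the cytosol the trifunctional enzyme Mthfd1 reloads formate onto folate for purine and thymidylate synthesis, and proliferating tumor cells commonly use this route. Many genes of the mitochondrial arm and of serine synthesis are known targets of Atf4, the transcription factor of the integrated stress response, and Myc has been linked to the same enzymes.

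Library totals were 14753177 to 17949430 counts (Myc experiment) and 2315327 to 3082202 counts (HU experiment), so low genes are measured less precisely in the HU experiment. Levels are given as CPM, read counts scaled to a common library total of 1e+06. The labelled cell type, a hepatocellular carcinoma, was checked against marker genes. Of 12 hepatocyte markers, only Afp in the Myc table and Afp and Apob in the HU table are listed, with Alb in neither, and their summed level was 0.223 to 31.7 CPM in the Myc experiment and 13.8 to 28.9 CPM in the HU experiment. Epithelial markers (Krt8, Krt18, Krt19 and Sox9, 4 of 6 listed) summed to 1956 to 4311 CPM and 2212 to 3096 CPM. Endothelial markers were not listed (0 of 4), and of 6 leukocyte markers only Cd68 was, at 0.780 to 6.39 CPM. Trim33 mRNA was 236 and 247 CPM in WT Ctrl, 122 and 130.3 in KO1 Ctrl, followed by 204 and 210.1 in KO2 Ctrl. In KO2 Ctrl Trim33 mRNA was 1.24-fold lower than in WT Ctrl, so its level marks the genotype only weakly. Trim33 mRNA went against the labels in the Myc-vector libraries. It was 132 and 158 CPM in those labelled WT Myc, below 186 and 195 in those labelled KO1 Myc. Those labelled KO2 Myc had 125 and 126 CPM. Other genes also crossed between the KO labels. Col3a1 was at 367 and 318 CPM in KO1 Ctrl, and the libraries near it were those labelled KO2 Myc (357 and 344), while those labelled KO1 Myc (35.3 and 41.2) lay near KO2 Ctrl (45.3 and 39.2). Krt19 had the same order, with 48.1 and 46.8 CPM in KO1 Ctrl and 49.3 and 49.97 under the label KO2 Myc, against 114 and 121 in KO2 Ctrl and 135 and 141 under the label KO1 Myc. The libraries labelled WT Myc were nearest to WT Ctrl for Krt19 (331 and 259.9 against 398 and 379) and Afp (25.4 and 19.8 against 31.7 and 28.9). For Sox9 they were nearest to KO1 Ctrl (81.5 and 71.6 against 59.3 and 55.2, with 181 and 192 in WT Ctrl). For Col3a1 they were nearest to KO2 Ctrl (29.0 and 35.5, with 5.96 and 5.30 in WT Ctrl). Whether labels were exchanged cannot be settled from these values. The groups follow the labels throughout, and every Myc effect given, in WT cells or in a KO line, rests on them, its interaction term included. In the HU experiment Trim33 mRNA was 141 and 127 CPM in untreated WT, against 145 and 142 in HU-treated WT, above 49.9 and 43.0 in untreated KO, against 50.1 and 51.5 in HU-treated KO.

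The sequence around the start of each gene was searched for the core of the C/EBP-Atf response element (CARE, TGATGNAA), which Atf4 binds. Many of the 9 genes are known Atf4 targets, and whether the motif has a part in their changes was not tested. Within 1000 bases on either side of the annotated start on NCBIM37 (mm9), on both strands, the CARE core was found in 6 of the 9 genes (Phgdh, Psph, Shmt2, Mthfd1l, Mthfd2 and Aldh1l2) and in 22.2% of 22219 genes searched the same way. The matches are written in the direction of each gene, 5′ to 3′, with the CARE core in capitals. In Aldh1l2 and in the second match of Shmt2 the core lies on the opposite strand.
Phgdh, intron, chr3:98143126-98143165, strand -: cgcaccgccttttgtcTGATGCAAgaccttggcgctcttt
Psph, upstream of the start, chr5:130285436-130285475, strand -: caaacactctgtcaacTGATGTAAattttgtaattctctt
Psph, intron, chr5:130284686-130284725, strand -: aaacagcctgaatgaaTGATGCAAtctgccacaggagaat
Shmt2, intron, first match, chr10:126958997-126959036, strand -: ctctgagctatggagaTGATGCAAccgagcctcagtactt
Shmt2, intron, second match, chr10:126958975-126959014, strand -: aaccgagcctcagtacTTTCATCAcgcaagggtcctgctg
Mthfd1l, intron, chr10:6372759-6372798, strand -: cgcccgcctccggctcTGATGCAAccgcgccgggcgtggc
Mthfd2, intron, chr6:83267158-83267197, strand -: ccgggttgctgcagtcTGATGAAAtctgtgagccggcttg
Aldh1l2, UTR, chr10:82996129-82996158, strand -: cagacgtgggaTTGCATCAgatcacttcta

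The letters were not found in this window of Psat1, Shmt1 or Mthfd1. The start used is that of a chosen protein-coding transcript of each gene. In Psph and Psat1 the annotated gene begins upstream of this window, and that stretch was not searched. The Psph match upstream of the start used thus lies inside the annotated gene. Shmt1 and Mthfd1, which were not called as lower in the KO lines, are shown with their E-boxes (CACGTG, a motif that Myc binds and whose letters read the same on both strands), in capitals.
Mthfd1, coding exon, chr12:77356387-77356424, strand +: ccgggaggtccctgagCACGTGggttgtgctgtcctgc
Shmt1, UTR, first match, chr11:60624692-60624719, strand -: acgtggtgtgtCACGTGgtggggaggct
Shmt1, UTR, second match, chr11:60624664-60624691, strand -: ggttcccggagCACGTGctgggctgtta
E-boxes were found in 6 of the 9 genes (Shmt1, Mthfd1, Shmt2, Mthfd2, Mthfd1l and Aldh1l2), against 27.8% of all genes, and the E2f site TTTCCCGC or TTTGGCGC in 2 of the 9 (Shmt2 and Mthfd1l), against 7.35%. This window was chosen after a shorter one, 250 bases before to 50 bases after the RefSeq start on GRCm38.p6, had held none of the 3 motifs in the 8 genes matched there (all but Aldh1l2). In that window 3.97% of 32851 starts hold the CARE core, 7.15% an E-box and 1.56% the E2f site. Shmt2, Mthfd2, Mthfd1l and Aldh1l2, which fell in both KO lines, hold E-boxes too, and these are not printed. A match describes these letters and is no measured binding site.

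**Figure D1:**
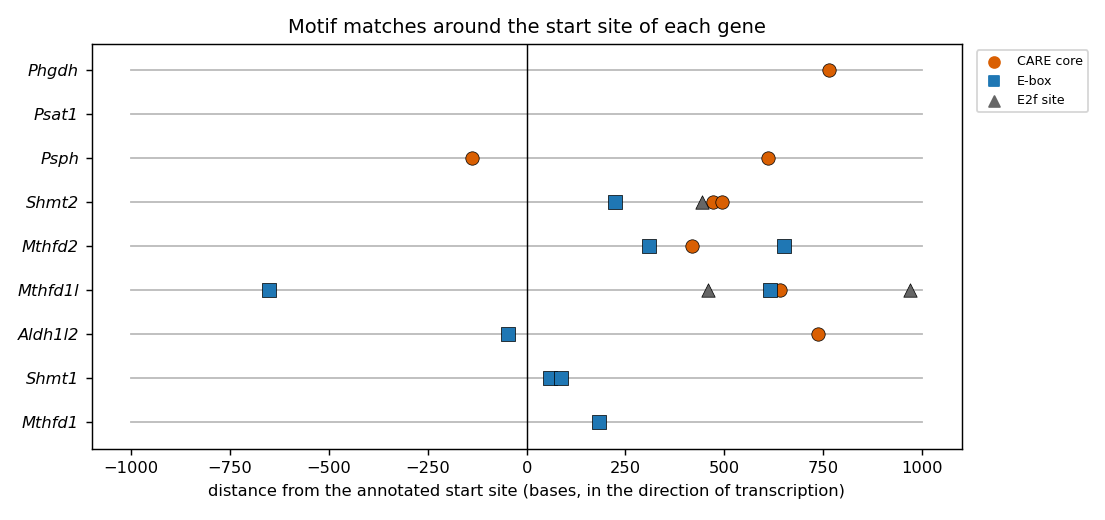
Positions of motif matches on NCBIM37 (mm9) within 1000 bases of the annotated start of a chosen transcript of each gene. Distance in bases is on the x axis, with 1 line per gene. CARE cores (circles) lie on 6 lines, all but 1 of the matches downstream of the start, and Psat1 has no match of any of the 3 motifs.

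Levels were compared between genes per kilobase of annotated exon. In WT Ctrl cells, Shmt2 had the highest level, 368 ± 5.27 CPM per kilobase (SD, n = 2), followed by Phgdh (226 ± 3.61) and Psat1 (137 ± 0.888). Mthfd2 (113 ± 4.84) and Psph (110 ± 0.439, in CPM per kilobase) overlapped. Mthfd1l stood at 54.5 ± 0.295, Aldh1l2 at 41.8 ± 3.86, Mthfd1 at 25.1 ± 0.143 and Shmt1 at 12.1 ± 0.524 CPM per kilobase. In KO1 Ctrl cells Shmt2, Phgdh and Psat1 were still the first 3, at 123, 110.4 and 65.2 CPM per kilobase, but Mthfd1 had moved to the fourth place (32.5) and Aldh1l2 to the last (1.64). In untreated WT cells of the HU experiment, Phgdh (121 ± 21.2 CPM per kilobase), Shmt2 (108 ± 1.02) and Psat1 (105 ± 4.93) overlapped, and Aldh1l2 was again last at 1.26 ± 0.338. The tables were scaled separately, and no test was run across them.

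With the Ctrl vector, 7 of the 9 genes fell and 1, Mthfd1, rose in both KO1 and KO2 cells compared with WT, at an adjusted p below 0.01 (edgeR's quasi-likelihood test with Benjamini-Hochberg adjustment over all genes). Called in either direction were 52.2% of all genes in KO1 and 49.9% in KO2, and called as lower were 26.7% and 26.6%. The median log2 fold change of the 9 genes was -1.13 in KO1 and -1.04 in KO2, against -0.0036 and -0.011 over all genes tested. The falls ran from 1.95-fold (Mthfd1l) to 26.4-fold (Aldh1l2) in KO1 and from 1.92-fold to 21.5-fold in KO2, for the same genes. The libraries of WT and KO cells did not overlap in any of the 9 genes in either line, as was the case for 83.8% and 82.2% of all genes. The WT Ctrl libraries are shared by the KO1 and KO2 comparisons.

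**Figure D2:**
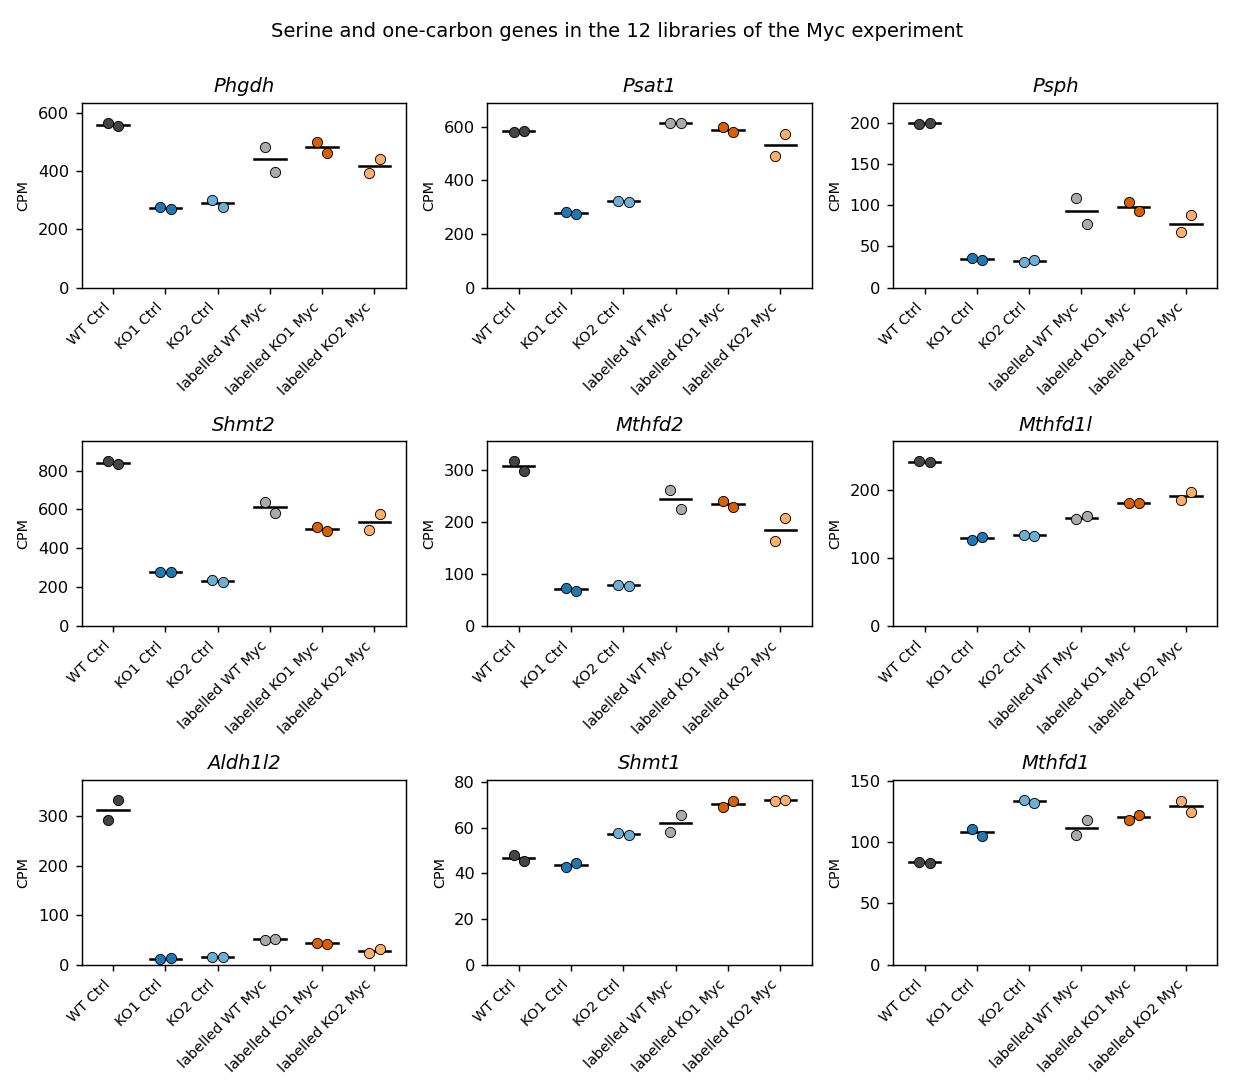
CPM of each gene (y axis, from 0) in the 12 libraries of the Myc experiment, with a point per library and a bar at the mean of each group of 2. The WT Ctrl points lie above every other library for Phgdh, Psph, Shmt2, Mthfd2, Mthfd1l and Aldh1l2.

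In serine synthesis, Phgdh (Entrez 236539), the first enzyme, was measured at 567 and 555 CPM in WT Ctrl, 278 and 272 in KO1 Ctrl, followed by 300.3 and 279 in KO2 Ctrl. All 4 KO libraries lay below both WT libraries (log2 fold change -1.09 ± 0.082 (SE), adjusted p = 9.31e-09 in KO1 and -1.04 ± 0.082 (SE), adjusted p = 1.96e-08 in KO2). A RefSeq pseudogene, Phgdh-ps1, could share reads with Phgdh. The aminotransferase Psat1 (Entrez 107272) was at 580.3 and 586 CPM in WT, 282 and 273 in KO1, followed by 325 and 319 in KO2, again without overlap (log2 fold change -1.13 ± 0.063 (SE), adjusted p = 2.22e-10 and -0.94 ± 0.063 (SE), adjusted p = 2.67e-09). The phosphatase Psph (Entrez 100678) fell further, from 199.2 and 200.3 CPM in WT to 35.6 and 33.7 in KO1, followed by 31.2 and 33.6 in KO2. Its level was 5.98-fold lower in KO1 and 6.54-fold lower in KO2 (log2 fold change -2.58 ± 0.14 (SE), adjusted p = 1.41e-10 and -2.71 ± 0.14 (SE), adjusted p = 1.36e-10).

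Of the serine hydroxymethyltransferases, the mitochondrial Shmt2 (Entrez 108037) fell from 848 and 831 CPM in WT Ctrl to 280.3 and 279 in KO1, followed by 238 and 229 in KO2 (log2 fold change -1.64 ± 0.070 (SE), adjusted p = 9.76e-12 and -1.93 ± 0.071 (SE), adjusted p = 3.06e-12). The cytosolic Shmt1 (Entrez 20425) was at 48.3 and 45.4 CPM in WT, 42.7 and 44.7 in KO1, followed by 57.7 and 56.6 in KO2, and was called in neither line. Its difference from WT was log2 fold change -0.15 ± 0.072 (SE), adjusted p = 0.0710 in KO1 (95% interval -0.31 to -0.0024) and 0.20 ± 0.070 (SE), adjusted p = 0.0185 in KO2 (95% interval 0.056 to 0.35). In KO2, Shmt1 passed the threshold when only the compared groups entered the fit (adjusted p = 0.00401) or when genes under 5 CPM in any library were left out (0.00619).

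In the mitochondrial folate arm, the dehydrogenase Mthfd2 (Entrez 17768) had 317 and 298 CPM in WT Ctrl, 72.9 and 68.0 in KO1, followed by 79.6 and 76.5 in KO2. It was 4.53-fold lower in KO1 and 4.17-fold lower in KO2 (log2 fold change -2.18 ± 0.10 (SE), adjusted p = 1.76e-11 and -2.06 ± 0.10 (SE), adjusted p = 4.56e-11). Mthfd1l (Entrez 270685), which releases formate, had 243 and 241 CPM, 126 and 132, and 135 and 133 in the same order (log2 fold change -0.96 ± 0.053 (SE), adjusted p = 1.78e-10 and -0.94 ± 0.053 (SE), adjusted p = 3.60e-10). Aldh1l2 (Entrez 216188), the mitochondrial formyl-tetrahydrofolate dehydrogenase, changed most among the 9 genes. It had 293 and 334 CPM in WT, 12.1 and 12.5 in KO1, followed by 14.9 and 15.99 in KO2 (log2 fold change -4.72 ± 0.12 (SE), adjusted p = 2.11e-14 and -4.43 ± 0.12 (SE), adjusted p = 6.47e-14). The lowest of these values rests on 184 counts. In the cytosol, Mthfd1 (Entrez 108156) was higher in every KO library, at 83.9 and 83.2 CPM in WT, 111 and 105 in KO1, followed by 135 and 132 in KO2 (log2 fold change 0.32 ± 0.064 (SE), adjusted p = 3.85e-04 and 0.59 ± 0.063 (SE), adjusted p = 5.83e-07).

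Markers of other cell types differed between the same groups, in both directions. Of the mesenchymal markers (7 of 8 listed), Vim was at 2804 and 2617 CPM in WT Ctrl, 3379.8 and 3528 in KO1 Ctrl, followed by 3138 and 3112 in KO2 Ctrl, and S100a4 at 216 and 177 CPM, 1164 and 1152, then 896 and 921. Col3a1 and Pdgfrb were also higher in the KO libraries. Col1a1 and Acta2 were higher in KO1 Ctrl, while in KO2 Ctrl Acta2 overlapped with WT and Col1a1 was lower (28.3 and 28.6 CPM in WT against 25.1 and 22.6). Col1a2 was lower in KO2 Ctrl, at 17.5 and 14.8 CPM, and higher in KO1 Ctrl, at 140.4 and 141, than in WT Ctrl at 126 and 124. The 7 genes summed to 2969 to 3196 CPM in WT Ctrl, 5332 to 5394 in KO1 Ctrl and 4209 to 4229.6 in KO2 Ctrl. Of the 4 epithelial markers, Krt18, Krt19 and Sox9 were lower in both KO lines, and Krt8, at 1833 and 1719 CPM in WT, was lower in KO1 (1638 and 1686) and higher in KO2 (1896 and 1923), for sums of 4158 to 4311, 3206 to 3271 and 3541 to 3605 CPM. The part of all these markers in the falls of the 7 enzymes was not tested. In bulk samples, fewer cells that express a gene and less RNA per cell cannot be told apart.

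Between the KO lines, 3 of the 9 genes were called in KO2 Ctrl against KO1 Ctrl, with 18.3% of all genes called (8.33% as higher and 9.96% as lower). The groups did not overlap in any of the 9 genes, as in 69.7% of all genes. Shmt1 (log2 fold change 0.36 ± 0.070 (SE), adjusted p = 0.00101) and Mthfd1 (0.28 ± 0.062 (SE), adjusted p = 0.00293) were higher in KO2, and Shmt2 (-0.29 ± 0.070 (SE), adjusted p = 0.00513) was lower. These small differences did not all pass with 1 library fewer. The count was 0 without KO1 Ctrl replicate 1 or KO2 Ctrl replicate 1 and 1 without KO1 Ctrl replicate 2 or KO2 Ctrl replicate 2.

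The Myc vector was then compared with the Ctrl vector, which asks how the same enzymes respond to Myc in WT and KO cells. In the libraries labelled WT Myc, 6 of the 9 genes were lower than in WT Ctrl and 2 were higher, with 44.3% of all genes called (21.6% as higher and 22.7% as lower). In KO1 cells 8 of the 9 were higher with Myc and none lower, with 36.1% of all genes called (17.9% as higher), and in KO2 cells also 8 and none, with 38.8% called (20.2% as higher). The groups did not overlap in 9, 9 and 8 of the 9 genes, against 75.4%, 75.9% and 77.5% of all genes. The median log2 fold change of the 9 genes came to -0.43 (WT), 0.82 (KO1) and 0.74 (KO2), against 0.0069, 0.0066 and 0.017 over all genes. Myc mRNA itself (Entrez 17869) was 415 and 421 CPM in WT Ctrl and 461 and 466 in the libraries labelled WT Myc. This difference was not called (log2 fold change 0.067 ± 0.055 (SE), adjusted p = 0.310). It rose from 185 and 196 CPM in KO1 Ctrl to 624 and 655 in those labelled KO1 Myc, and from 213 and 222 in KO2 Ctrl to 462 and 503 in those labelled KO2 Myc (log2 fold change 1.73 ± 0.057 (SE), adjusted p = 1.20e-12 and 1.16 ± 0.056 (SE), adjusted p = 9.14e-11).

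**Figure D3:**
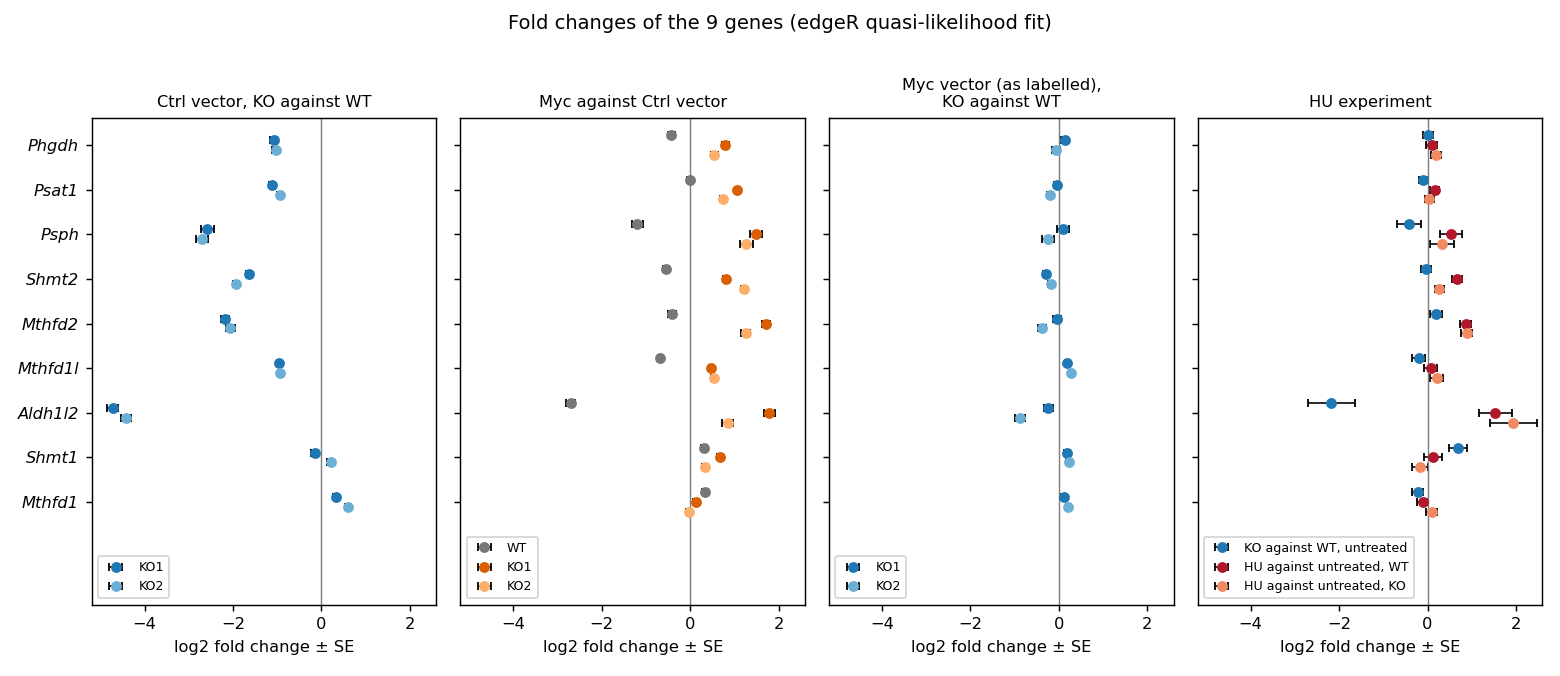
Log2 fold changes of the 9 genes (x axis, points, with bars of 1 SE from the edgeR fit) in the Ctrl-vector, Myc-vector and HU comparisons. Of the 9 genes, 7 lie left of 0 in both KO lines with the Ctrl vector, at least 8 lie right of 0 with Myc in KO1 and in KO2, and all lie within 0.88 of 0 between the libraries labelled Myc.

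In the libraries labelled WT Myc, Phgdh had 484 and 399 CPM, both below WT Ctrl (log2 fold change -0.43 ± 0.081 (SE), adjusted p = 3.06e-04). Psat1, with 615 and 612 CPM, was the gene that was not called (log2 fold change -0.0094 ± 0.062 (SE), adjusted p = 0.910, 95% interval -0.14 to 0.12). Psph was at 108 and 76.9 CPM and Shmt2 at 639 and 582 CPM, and both fell (log2 fold change -1.19 ± 0.13 (SE), adjusted p = 9.54e-07 for Psph and -0.54 ± 0.068 (SE), adjusted p = 5.68e-06 for Shmt2). Mthfd2, at 262 and 225 CPM, and Mthfd1l, at 157 and 162 CPM, both fell as well (log2 fold change -0.42 ± 0.091 (SE), adjusted p = 9.11e-04 and -0.68 ± 0.052 (SE), adjusted p = 2.68e-08). The call of Mthfd2 was lost without WT Ctrl replicate 1 (adjusted p = 0.0152). Aldh1l2 was 6.50-fold lower, at 49.9 and 52.2 CPM (log2 fold change -2.70 ± 0.10 (SE), adjusted p = 1.87e-11). The cytosolic enzymes rose, Mthfd1 to 106 and 118 CPM (log2 fold change 0.34 ± 0.063 (SE), adjusted p = 2.61e-04) and Shmt1 to 58.4 and 65.6 CPM (log2 fold change 0.32 ± 0.069 (SE), adjusted p = 8.95e-04). Shmt1 was not called without WT Ctrl replicate 2 (adjusted p = 0.0176) or with only the compared groups in the fit (0.0132).

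In the KO lines the serine synthesis genes rose with Myc. Phgdh reached 501 and 464 CPM in the libraries labelled KO1 Myc, followed by 396 and 444 in those labelled KO2 Myc (log2 fold change 0.79 ± 0.082 (SE), adjusted p = 8.12e-07 and 0.55 ± 0.082 (SE), adjusted p = 4.05e-05). Psat1 reached 597 and 582 CPM and 491 and 571 (log2 fold change 1.07 ± 0.063 (SE), adjusted p = 1.45e-09 and 0.74 ± 0.063 (SE), adjusted p = 8.67e-08), close to its level in WT Ctrl. Psph reached 104 and 93.1 CPM and 66.9 and 88.1 (log2 fold change 1.49 ± 0.14 (SE), adjusted p = 3.19e-07 and 1.27 ± 0.14 (SE), adjusted p = 2.22e-06). The mean level of Psph was then 49.2% of that in WT Ctrl in the libraries labelled KO1 Myc and 38.8% in those labelled KO2 Myc, against 101% and 91.1% for Psat1 and 86.0% and 74.8% for Phgdh. No library of the Ctrl-vector KO lines overlapped with the Myc-vector libraries of the same line for these 3 genes.

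The mitochondrial genes rose as well. Shmt2 was at 511 and 487 CPM in the libraries labelled KO1 Myc, followed by 496 and 577 in those labelled KO2 Myc (log2 fold change 0.82 ± 0.069 (SE), adjusted p = 8.72e-08 and 1.21 ± 0.070 (SE), adjusted p = 9.14e-10). Mthfd2 was at 239.7 and 229.7 CPM and 163 and 207 (log2 fold change 1.72 ± 0.10 (SE), adjusted p = 9.41e-10 and 1.26 ± 0.10 (SE), adjusted p = 2.81e-08), which was 3.29-fold and 2.39-fold above the Ctrl vector. Mthfd1l was at 181 and 181 CPM and 186 and 198 (log2 fold change 0.47 ± 0.053 (SE), adjusted p = 2.30e-06 and 0.53 ± 0.053 (SE), adjusted p = 5.10e-07). Aldh1l2 rose to 43.6 and 42.7 CPM and 23.0 and 32.03 (log2 fold change 1.79 ± 0.13 (SE), adjusted p = 1.31e-08 and 0.85 ± 0.13 (SE), adjusted p = 4.94e-05), which left it at 13.8% and 8.78% of its mean level in WT Ctrl. In the cytosol Shmt1 rose to 69.0 and 71.7 CPM and 71.8 and 72.3 (log2 fold change 0.67 ± 0.069 (SE), adjusted p = 8.15e-07 and 0.35 ± 0.067 (SE), adjusted p = 4.45e-04), while Mthfd1 was at 118 and 122 CPM and 134 and 125 and was called in neither line (95% interval 0.0039 to 0.27 in KO1 and -0.16 to 0.095 in KO2).

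For the 8 genes that rose in both KO lines, all 4 libraries labelled KO1 Myc or KO2 Myc lay above all KO Ctrl libraries. The direction is therefore the same whichever KO line these libraries hold, whereas the size of each effect is not. An exchange with the libraries labelled WT Myc is not covered by this. The difference between the Myc effects in KO and WT cells was tested as an interaction term of the same fit. It was called as higher in KO1 for 8 of the 9 genes, with 37.3% of all genes called (19.2% as higher), and in KO2 for 7, with Mthfd1 called as lower and 32.8% of all genes called (16.6% as higher). The call of Shmt1 in KO1 was lost in 7 of 8 fits with 1 library left out, and passed only without WT Myc replicate 2. It was also lost with DESeq2 (adjusted p = 0.0208), without genes under 5 CPM in any library (0.0123) and with only the compared groups in the fit (0.0198). The terms were largest for Aldh1l2 (log2 fold change 4.49 ± 0.16 (SE), adjusted p = 5.74e-12 in KO1 and 3.55 ± 0.16 (SE), adjusted p = 1.29e-10 in KO2), Psph (2.68 and 2.47) and Mthfd2 (2.14 and 1.68). These terms use the same WT Ctrl libraries as the comparisons of KO with WT.

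Between the libraries labelled KO1 Myc and WT Myc, 2 of the 9 genes were called, with 25.1% of all genes called (12.6% as higher and 12.5% as lower), and 6 did not overlap, against 64.5% of all genes. Mthfd1l was higher (log2 fold change 0.19 ± 0.052 (SE), adjusted p = 0.00909) and Shmt2 lower (-0.28 ± 0.068 (SE), adjusted p = 0.00387), and neither was called without KO1 Myc replicate 1 or KO1 Myc replicate 2, where the count was 0. Without WT Myc replicate 1 both calls were lost too, and Phgdh (0.29, adjusted p = 0.00181) and Psph (0.37, adjusted p = 0.00656) were called as higher in their place. Without WT Myc replicate 2, Shmt1 was called in addition (0.27, adjusted p = 0.00380). Between those labelled KO2 Myc and WT Myc, 5 were called, with 35.2% of all genes called (17.2% as higher and 18.0% as lower), and 7 did not overlap, against 70.4% of all genes. Aldh1l2 (log2 fold change -0.88 ± 0.11 (SE), adjusted p = 8.15e-06) and Mthfd2 (-0.38 ± 0.092 (SE), adjusted p = 0.00261) were lower, and Mthfd1l (0.28 ± 0.052 (SE), adjusted p = 3.88e-04), Mthfd1 (0.22 ± 0.061 (SE), adjusted p = 0.00792) and Shmt1 (0.23 ± 0.066 (SE), adjusted p = 0.00976) were higher. This count was 2 without WT Myc replicate 1 or without KO2 Myc replicate 1. Without WT Myc replicate 2, Psph (-0.47, adjusted p = 2.71e-04) and Shmt2 (-0.25, adjusted p = 0.00305) were called in addition. It was 1, that of Aldh1l2, with only the compared groups in the fit. The spread within groups was wider here than with the Ctrl vector for Psph, with 108 and 76.9 CPM for WT Myc and 66.9 and 88.1 for KO2 Myc.

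In the HU experiment, 1 of the 9 genes, Aldh1l2, was called in untreated KO against untreated WT cells, with 5.58% of all genes called at an adjusted p below 0.01 (2.52% as lower and 3.07% as higher). The groups did not overlap in 5 of the 9, against 50.2% of all genes. Aldh1l2 had 11.2 and 7.65 CPM in untreated WT, against 1.20 and 2.63 in untreated KO, from 26 and 20 against 3 and 8 counts (log2 fold change -2.18 ± 0.53 (SE), adjusted p = 0.00311). The groups did not overlap, but the call was lost without WT replicate 1 (adjusted p = 0.0455), KO replicate 1 (0.0537) or KO replicate 2 (0.0124), and when the counts were divided by 2 (0.0146). Shmt1 was at 35.0 and 48.9 CPM in WT and 70.7 and 61.4 in KO and was not called (log2 fold change 0.69 ± 0.20 (SE), adjusted p = 0.0132). It passed without WT replicate 2 (adjusted p = 0.00820) and with the replicate number as a block (0.00556).

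The other genes that fell with the Ctrl vector in the Myc experiment were not called here. Shmt2 was at 248 and 245 CPM in untreated WT, against 212 and 254 in untreated KO (95% interval -0.26 to 0.19 on the log2 scale). Mthfd2 was at 92.9 and 91.4 CPM and 95.03 and 108 (95% interval -0.091 to 0.46). Psph was at 25.5 and 24.8 CPM and 18.4 and 18.1, without overlap (95% interval -0.96 to 0.11). The intervals of Phgdh (-0.22 to 0.25), Psat1 (-0.31 to 0.11) and Mthfd1l (-0.48 to 0.079) included 0. In each of the 7 genes, Aldh1l2 included, the lower bound of this interval lies above both estimates from the Ctrl-vector comparison, KO1 and KO2 against WT. Mthfd1, which was higher in both KO lines with the Ctrl vector, was at 158 and 169 CPM in untreated WT, against 129.8 and 141 in untreated KO, without overlap and not called (log2 fold change -0.23 ± 0.13 (SE), adjusted p = 0.267, 95% interval -0.48 to 0.027). In mean CPM, untreated WT lay nearer to KO2 Ctrl than to WT Ctrl for Shmt2 (247, with 233 and 840) and Mthfd2 (92.1, with 78.1 and 308). The same held for Psph (25.2, with 32.4 and 200), Aldh1l2 (9.44, with 15.4 and 313) and Atf4 (325, with 343 and 1161). Phgdh (300, with 289 and 561) and Mthfd1l (126, with 134 and 242) were alike, and Psat1 lay between (446, with 322 and 583). The experiments were scaled separately, and the difference between them was not tested.

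**Figure D4:**
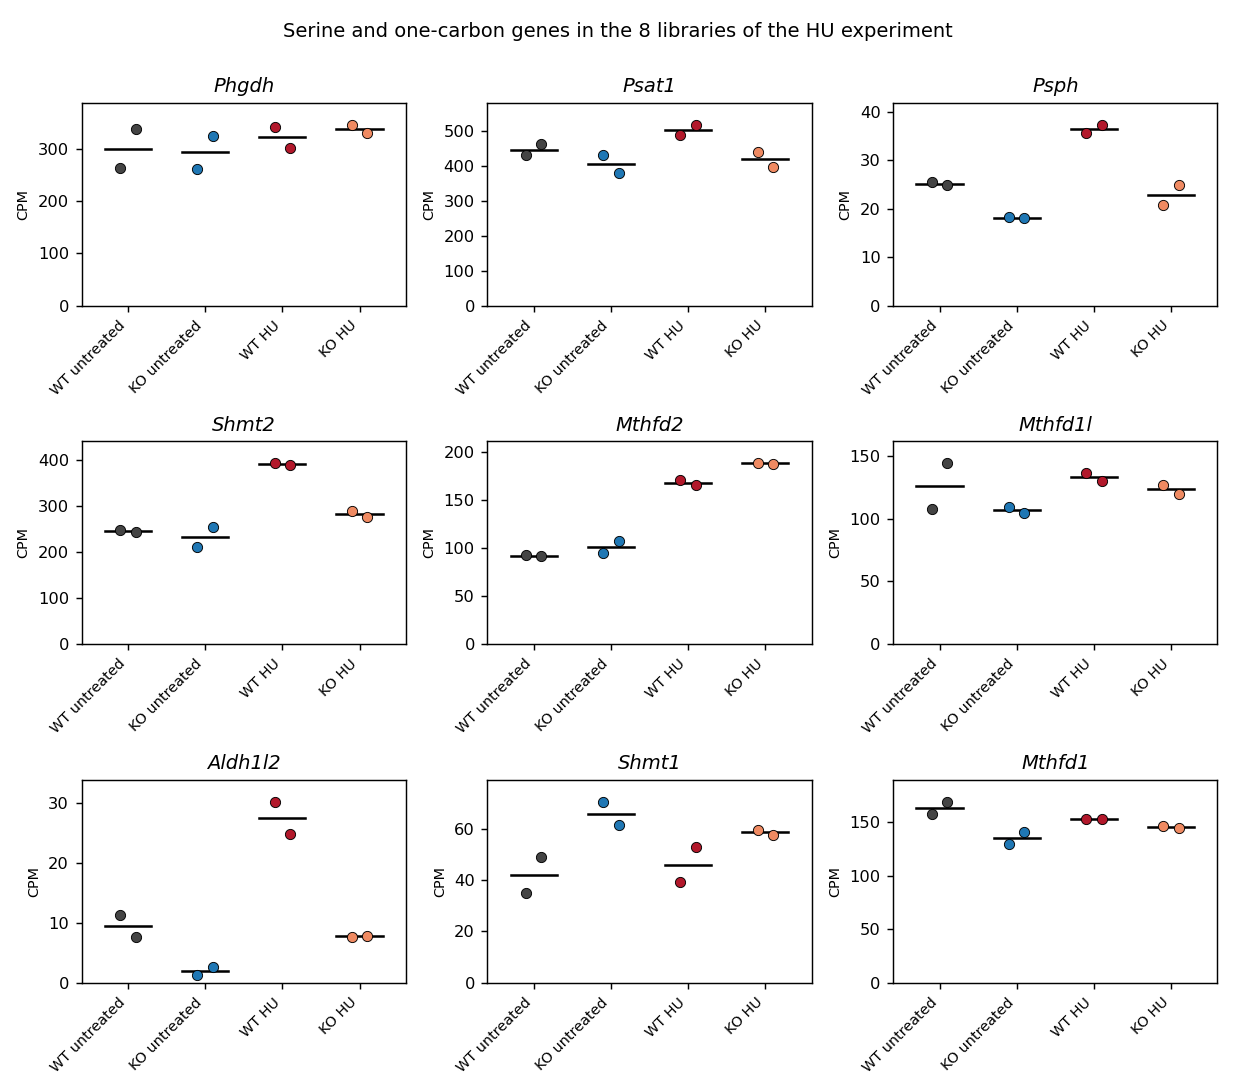
CPM of each gene (y axis, from 0) in the 8 libraries of the HU experiment, with a point per library and a bar at the mean of each group of 2. HU-treated libraries lie above untreated ones of the same genotype for Mthfd2, Aldh1l2, Shmt2 and Psph. The KO points of Aldh1l2 lie below the WT points of the same treatment.

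After HU, 3 of the 9 genes were higher in WT cells, with 9.83% of all genes called at an adjusted p below 0.05 (6.39% as higher), and 2 were higher in KO cells, with 6.45% called (4.65% as higher). None was lower in either, where 3.44% and 1.80% of all genes were. The groups did not overlap in 6 of the 9 in WT and 8 in KO, against 50.7% and 44.9% of all genes. Mthfd2 rose from 92.9 and 91.4 CPM to 171 and 166 in WT and from 95.03 and 108 to 189 and 188 in KO, without overlap (log2 fold change 0.86 ± 0.13 (SE), adjusted p = 1.14e-06 and 0.89 ± 0.13 (SE), adjusted p = 4.26e-07). Aldh1l2 rose from 11.2 and 7.65 CPM to 30.2 and 24.7 in WT and from 1.20 and 2.63 to 7.66 and 7.80 in KO (log2 fold change 1.54 ± 0.37 (SE), adjusted p = 0.00293 and 1.94 ± 0.54 (SE), adjusted p = 0.0147). At these counts its call in WT was lost without WT HU replicate 1 (adjusted p = 0.0975) or untreated WT replicate 2 (0.0812). Its call in KO was lost without untreated KO replicate 1 (0.171), KO HU replicate 1 (0.0748) or KO HU replicate 2 (0.0632). Shmt2 rose in WT to 394 and 390.1 CPM (log2 fold change 0.66 ± 0.11 (SE), adjusted p = 7.47e-06), and in KO it was at 289 and 276 and was not called (log2 fold change 0.27 ± 0.11 (SE), adjusted p = 0.162, 95% interval 0.047 to 0.49).

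The serine synthesis genes were not called after HU. Psph, at 35.7 and 37.4 CPM in HU-treated WT, against 20.9 and 24.97 in HU-treated KO, had the widest interval of the 3, with log2 fold change 0.53 ± 0.25 (SE), adjusted p = 0.195 in WT (95% interval 0.032 to 1.02). Phgdh was at 343 and 303 CPM and 347 and 331 (95% interval -0.14 to 0.32 in WT and -0.033 to 0.43 in KO), and Psat1 at 487 and 517 CPM and 440.2 and 396 (95% interval -0.047 to 0.37 and -0.17 to 0.25). Mthfd1 was at 153 and 153 CPM and 147 and 144, Mthfd1l at 137 and 130.3 CPM and 127 and 120.2, and Shmt1 at 39.3 and 52.9 CPM and 59.5 and 57.7, and none of these was called.

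Between HU-treated KO and HU-treated WT cells, 2 of the 9 genes were lower, with 6.04% of all genes called at an adjusted p below 0.01 (2.77% as lower and 3.27% as higher), and 8 did not overlap, against 56.1% of all genes. These were Aldh1l2 (log2 fold change -1.78 ± 0.38 (SE), adjusted p = 6.08e-04) and Shmt2 (-0.42 ± 0.11 (SE), adjusted p = 0.00537). The count was 1 without WT HU replicate 2 and 0 without WT HU replicate 1, KO HU replicate 1 or KO HU replicate 2. The HU effect did not differ between KO and WT for any of the 9 genes at an adjusted p below 0.05 in the interaction term of edgeR, where 0.0714% of all genes were called. DESeq2 also called 0 of the 9, and 1, Shmt2, had an unadjusted p below 0.05 in edgeR (log2 fold change -0.39, 95% interval -0.70 to -0.075).

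Of 48 other genes of serine, glycine, folate and methionine metabolism, 41 are listed in the Myc table and 34 in the HU table. With the Ctrl vector, 12 of the 41 were higher and 11 lower in KO1, and 12 higher and 9 lower in KO2. These are 56.1% and 51.2% of the 41, near the 52.2% and 49.9% of all genes called, with medians of -0.057 and 0.075 on the log2 scale. Cth, which makes cysteine from serine-derived cystathionine, went lowest. It had 192 and 195 CPM in WT Ctrl, 4.55 and 4.20 in KO1, followed by 4.77 and 4.16 in KO2 (log2 fold change -5.52 ± 0.22 (SE), adjusted p = 4.36e-12 and -5.52 ± 0.22 (SE), adjusted p = 7.91e-12). The neutral amino acid transporter Slc1a4, which carries serine, fell from 128 and 124 CPM to 27.7 and 30.3 in KO1, followed by 40.8 and 42.2 in KO2 (log2 fold change -2.17 ± 0.089 (SE), adjusted p = 5.39e-12 and -1.68 ± 0.085 (SE), adjusted p = 9.39e-11). Sdsl, a serine dehydratase-like enzyme of 4.95 to 4.98 CPM in WT, also fell (log2 fold change -3.19 and -1.40). Among the largest rises were those of Mthfs, which returns 5-formyl-tetrahydrofolate to the pool (log2 fold change 1.95 ± 0.17 (SE), adjusted p = 4.83e-08 and 1.61 ± 0.18 (SE), adjusted p = 8.45e-07) and of Aldh1l1, the cytosolic counterpart of Aldh1l2, in KO1 (1.00 ± 0.25 (SE), adjusted p = 0.00207). Between the KO lines 6 of the 41 were higher in KO2 and 1, Qdpr, lower, and this count of 7 (17.1%, against 18.3% of all genes) was 2 to 4 with 1 library fewer, in each of the 4 libraries left out.

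With Myc, 16 of the 41 genes were higher and 7 lower than in WT Ctrl in the libraries labelled WT Myc. In KO1 15 were higher and 4 lower, and in KO2 12 and 10. The shares called were 56.1%, 46.3% and 53.7%, against 44.3%, 36.1% and 38.8% of all genes. Cth rose in both KO lines, to 43.8 and 41.7 CPM and 21.0 and 35.4 (log2 fold change 3.27 ± 0.24 (SE), adjusted p = 2.04e-08 and 2.67 ± 0.25 (SE), adjusted p = 3.27e-07), and fell in the libraries labelled WT Myc, to 44.0 and 29.7 (-2.48 ± 0.16 (SE), adjusted p = 5.22e-09). Slc1a4 rose in both KO lines (1.95 and 1.39 on the log2 scale). Aldh1l1 fell in both (-1.69 and -1.16). Gcat, a mitochondrial enzyme of glycine metabolism, rose in the libraries labelled WT Myc (1.18 ± 0.092 (SE), adjusted p = 3.32e-08), while Cbs (-1.57) and Mtr (-0.71), both of homocysteine metabolism, fell. The count in WT was 15 in place of 23 without WT Ctrl replicate 2, and that in KO2 was 14 without KO2 Ctrl replicate 1 and 12 without KO2 Ctrl replicate 2, in place of 22. Gldc, of the glycine cleavage system, was called in WT from 1 to 2 counts in a library with the Ctrl vector against 12 to 13 with Myc.

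**Figure D5:**
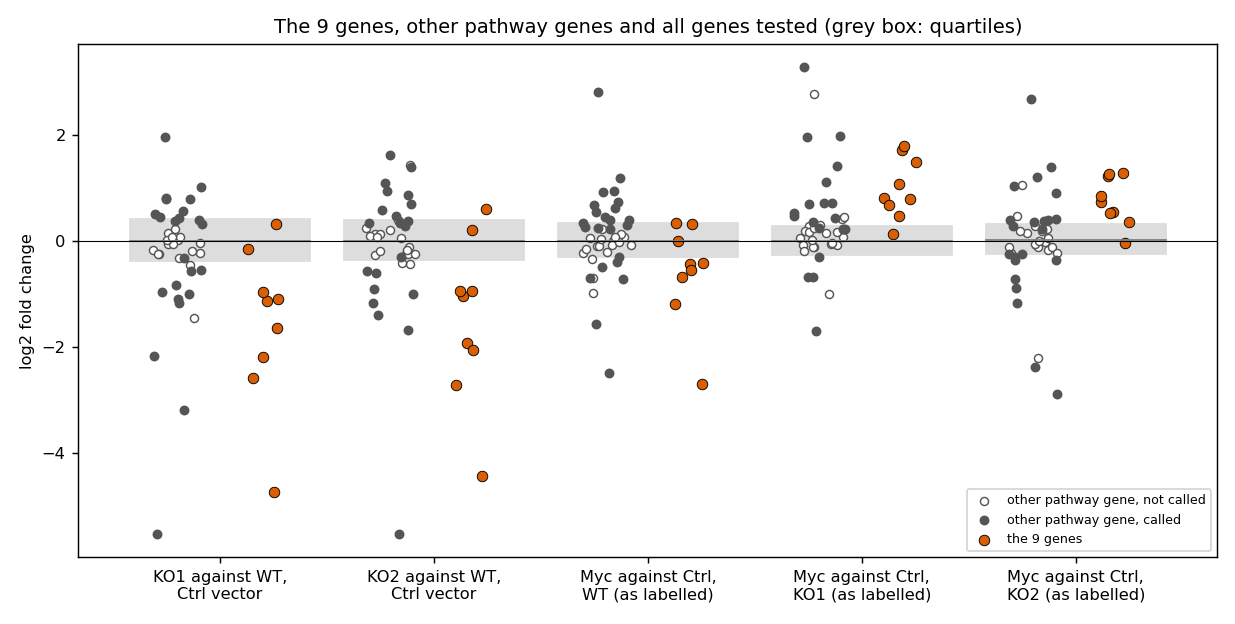
Log2 fold changes (y axis) of the 9 genes (orange) and of 41 other pathway genes (grey, filled where the adjusted p was below 0.01) in 5 comparisons of the Myc experiment, with grey boxes for the quartiles of all genes tested. The other pathway genes spread to both sides of 0 in each comparison, while most of the 9 lie below 0 in KO1 and KO2 with the Ctrl vector and above 0 with Myc in KO1 and KO2.

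Between the libraries labelled Myc, 6 of the 41 were higher and 1 lower in KO1 than in WT, and 6 higher and 7 lower in KO2 (17.1% and 31.7% called, against 25.1% and 35.2% of all genes). Sardh, a mitochondrial sarcosine dehydrogenase, was higher in both (log2 fold change 0.79 ± 0.072 (SE), adjusted p = 3.90e-07 and 0.67 ± 0.072 (SE), adjusted p = 1.36e-06), and the glycolytic Pgk1 was lower in both (-0.33 and -0.55). The KO1 count was 11 in place of 7 without WT Myc replicate 2 and 4 without either KO1 Myc library. In the HU experiment, Slc1a4 rose with HU from 28.1 and 23.3 CPM to 78.8 and 97.1 in WT and from 29.9 and 24.9 to 73.8 and 70.2 in KO (log2 fold change 1.77 ± 0.20 (SE), adjusted p = 2.17e-10 in WT and 1.39 ± 0.20 (SE), adjusted p = 2.05e-07 in KO). Mat2a, which makes S-adenosylmethionine, fell from 316 and 298 CPM to 177 and 161 in WT (log2 fold change -0.87 ± 0.11 (SE), adjusted p = 1.85e-08) and alike in KO (-0.84 ± 0.11 (SE), adjusted p = 4.95e-08). In all, 2 of the 34 genes rose and 3 fell with HU in WT, and 2 rose and 2 fell in KO (14.7% and 11.8% called, against 9.83% and 6.45% of all genes). Mtfmt (-1.45) and Atic (-0.39) also fell in WT, and Mat2b (-0.75) in KO. The count in WT was 3 without WT HU replicate 1 or WT HU replicate 2. Dld, a subunit of the glycine cleavage system and of several dehydrogenases, was the 1 gene called between KO and WT cells, lower both untreated (-0.64 ± 0.14 (SE), adjusted p = 7.29e-04) and with HU (-0.77 ± 0.14 (SE), adjusted p = 3.07e-05), and it was not called untreated without WT replicate 2 or KO replicate 2.

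Atf4 mRNA (Entrez 11911) was measured beside its known targets. It was 1180.3 and 1141 CPM in WT Ctrl, 369.9 and 352 in KO1 Ctrl, followed by 344 and 341 in KO2 Ctrl (log2 fold change -1.74 ± 0.083 (SE), adjusted p = 3.63e-11 and -1.84 ± 0.084 (SE), adjusted p = 3.09e-11). With the Myc vector it was 1135 and 974 CPM in the libraries labelled WT Myc (-0.22 ± 0.080 (SE), adjusted p = 0.0275 against WT Ctrl), 937 and 907 in those labelled KO1 Myc, followed by 679 and 819 in those labelled KO2 Myc (1.33 ± 0.082 (SE), adjusted p = 2.30e-09 and 1.14 ± 0.082 (SE), adjusted p = 1.26e-08 against the Ctrl vector). HU raised it from 321 and 329.9 CPM to 656 and 657 in WT and from 269 and 315 to 553 and 501 in KO (1.00 ± 0.10 (SE), adjusted p = 1.59e-11 and 0.84 ± 0.11 (SE), adjusted p = 5.77e-09). Its level in untreated KO was not called against untreated WT (95% interval -0.32 to 0.10). The WT Ctrl libraries were the highest of the 12 for Atf4, as for 6 of the 9 enzymes.

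A list of 22 genes, Atf4 itself and known targets outside one-carbon metabolism such as Asns, Chac1 and several tRNA synthetases, was counted in the same way. Of these, 21 were lower and none higher in KO1 Ctrl and the same numbers in KO2 Ctrl, where 26.7% and 26.6% of all genes were lower, with medians of -1.97 and -1.84 on the log2 scale. With Myc, 21 were higher in KO1 and 19 in KO2, where 1 was lower, against 17.9% and 20.2% of all genes higher. In the libraries labelled WT Myc 11 were lower and 1 higher, against 22.7% and 21.6% of all genes. Compared with those labelled WT Myc, 8 of the 22 were lower under the label KO1 Myc and 16 under KO2 Myc, and none higher. Among all genes 12.5% and 18.0% were lower. Atf4 itself was called as lower under KO2 Myc (-0.48 ± 0.081 (SE), adjusted p = 1.31e-04) and not called under KO1 Myc (-0.19 ± 0.080 (SE), adjusted p = 0.0805). HU raised 18 of the 22 in WT and 17 in KO and lowered none, against 6.39% and 4.65% of all genes higher. In untreated KO 1 was higher and 1 lower than in untreated WT, against 3.07% and 2.52% of all genes. Between HU-treated KO and WT 1 was higher and 2 lower, against 3.27% and 2.77% of all genes. The medians after HU were 0.86 in WT and 0.83 in KO, against 0.16 and 0.20 for the 9 enzymes and 0 and -0.0098 for all genes. Whether Atf4 or any other factor has a part in these differences was not tested.

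For 8 of the 9 genes, all but Mthfd1l, the gene outside the list with the most similar pattern was taken by the mean of its Pearson correlations of log2 CPM over the 12 libraries of the Myc experiment and the 8 of the HU experiment, among 9901 genes of at least 5 CPM on average in both. The libraries share groups and depth, so these values only describe likeness. Mthfd2 was most like Arid5a (r = 0.988 over 12 and 0.978 over 8 libraries), and Aldh1l2 most like Clcn3 (0.991 and 0.935). Shmt2 was most like Rhbdd1 (0.948 and 0.969) and Psph like Sft2d2 (0.955 and 0.945). Phgdh was most like Zfp622 (0.936 and 0.875) and Psat1 like Elmsan1 (0.844 and 0.949). The cytosolic genes were most like others again, Shmt1 like Isg20l2 (0.934 and 0.869) and Mthfd1 like Adarb1 (0.883 and 0.926).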

How the data were processed

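Per the labels, total RNA was extracted with TRIzol and libraries were made with the NEBNext Ultra II kit, whereas the study's methods name an RNeasy kit and the NEBNext Ultra kit. The submitters' processing notes name the aligner STAR 2.5.4, edgeR 3.26.8 and the mm9 build. The authors deposited a table of whole-number read counts per gene for each experiment. The Myc table is named as normalized, but its values are whole numbers with unequal totals and were used as counts. The strand setting of the counting and the annotation are not given in the sources used here. Another 8 deposited tables hold the authors' fold changes and p-values and were not used.

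Each table was fitted as a whole with edgeR 4.0.16 (TMM factors 0.958 to 1.019 and 0.982 to 1.020, glmQLFit and glmQLFTest over all groups of the experiment, limma 3.58.1, R 4.3.3), with Benjamini-Hochberg adjustment over all genes and thresholds of 0.01 and, for HU against untreated, 0.05. The filter on low counts removed 0 genes. The 2-against-2 design cannot reach p < 0.05 in a permutation test of a single gene (smallest p 0.3333). The fits were tested on simulated counts. Alternatives were DESeq2 1.42.0, other size factors, filters, sample sets, halved HU counts and each library left out. Named pathway genes are up to 3 with the largest called change in each direction per comparison. Some genes that this rule or the likeness rule would name are not reported here. The 9 genes and the lists were chosen with earlier results of these data known.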

Additional observations from a re-analysis of the deposited data

Results flagged for a closer look

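The effect of the Myc vector differed between KO and WT cells for most of the 9 genes, by the interaction term of the edgeR fit at an adjusted p below 0.01, on the log2 scale and with the labels of the Myc-vector libraries taken as given. The term was higher in KO1 and in KO2 for Phgdh (1.22 and 0.97), Psat1 (1.08 and 0.74), Psph (2.68 and 2.47), Shmt2 (1.36 and 1.76), Mthfd1l (1.15 and 1.22), Mthfd2 (2.14 and 1.68) and Aldh1l2 (4.49 and 3.55). Shmt1 passed in KO1 (0.34), with 1 of its 8 fits with a library left out past the threshold, and Mthfd1 in KO2 (-0.38), but not without WT Ctrl replicate 2, KO2 Ctrl replicate 1 or KO2 Myc replicate 2.

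Of the other pathway genes, Cth (5.75 in KO1 and 5.16 in KO2) and Slc1a4 (2.11 and 1.55) had the same direction in both lines, as had Mthfs with a lower term (-1.62 and -1.66). Slc1a5, a glutamine transporter, passed in KO2 (0.99), and Tyms, thymidylate synthase, (-0.71) and the glycolytic Pgam1 (-0.66) were among the largest in KO1. Sdsl went opposite ways, 2.68 in KO1 and -2.19 in KO2, from 4 to 76 counts in a library. Its level was 0.594 and 0.525 CPM in KO1 Ctrl and 0.239 and 0.279 under the label KO2 Myc, against 1.99 and 1.98 in KO2 Ctrl and 2.63 and 1.88 under the label KO1 Myc, so these signs rest on the KO labels of the Myc-vector libraries. The fitted term of Gldc (-5.01 in KO2) rests on 0 to 13 counts in a library, depends on the prior count of the fit, and gives no bound on its size. The WT Ctrl libraries enter all these terms.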

How the results depend on the processing

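Among the 9 genes, the 8 calls in KO1 and in KO2 against WT with the Ctrl vector and the 8 with Myc in KO1 and in KO2 were counted again under every alternative that gave a value, with 8 each time but for KO2 against WT, where Shmt1 made 9 with only the compared groups in the fit or genes under 5 CPM left out. With 1 library left out, an arm with 1 library is assumed to vary like the others, and the counts that moved by over 1.5 times ran over these ranges. Of the 9 genes called: 0 to 1 (KO2 against KO1 Ctrl), 0 to 3 (KO1 Myc against WT Myc), 2 to 7 (KO2 Myc against WT Myc), 0 to 2 (untreated KO against WT), 1 to 2 (HU in KO), 0 to 1 (KO against WT with HU). Of the other pathway genes called: 2 to 4 (KO2 against KO1 Ctrl), 15 to 21 (Myc in WT), 12 to 16 (Myc in KO2), 4 to 11 (KO1 Myc against WT Myc), 12 to 19 (the interaction in KO2), 0 to 1 (untreated KO against WT), 3 to 5 (HU in WT). Log2 fold changes that changed sign with 1 library left out were not called with all libraries. Of these, 3 were called in another such fit, both Phgdh (0.29) and Psph (0.37) for KO1 Myc against WT Myc without WT Myc replicate 1, and Psph (-0.47) for KO2 Myc against WT Myc without WT Myc replicate 2. For KO2 against KO1 Ctrl the ranges were Mthfd1l -0.0035 to 0.049, Phgdh -0.0083 to 0.10. For Myc in KO2 the ranges were Mthfd1 -0.086 to 0.015. For KO1 Myc against WT Myc the ranges were Mthfd2 -0.15 to 0.077, Phgdh -0.00074 to 0.29, Psph -0.13 to 0.37. For KO2 Myc against WT Myc the ranges were Phgdh -0.20 to 0.088, Psph -0.47 to 0.030. For the interaction in KO2 the ranges were Shmt1 -0.053 to 0.11, Trim33 -0.0093 to 0.23. For untreated KO against WT the ranges were Mthfd1l -0.39 to 0.015, Myc -0.18 to 0.15, Phgdh -0.15 to 0.19, Shmt2 -0.17 to 0.073. For HU in WT the ranges were Mthfd1l -0.13 to 0.28, Phgdh -0.079 to 0.26, Shmt1 -0.11 to 0.36, Trim33 -0.0034 to 0.16. For HU in KO the ranges were Psat1 -0.059 to 0.15. For the interaction with HU the ranges were Mthfd1l -0.073 to 0.33, Mthfd2 -0.039 to 0.12, Phgdh -0.066 to 0.28, Psat1 -0.21 to 0.00046, Trim33 -0.066 to 0.17.

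With only the compared groups in the fit, which leaves fewer libraries to estimate the spread, 14 other pathway genes were called between KO2 and KO1 Ctrl, 0 of the 9 genes and 1 other pathway gene between the libraries labelled KO1 Myc and WT Myc, and 1 and 7 between those labelled KO2 Myc and WT Myc. DESeq2 called 1 of the 9 between those labelled KO1 Myc and WT Myc, 3 between those labelled KO2 Myc and WT Myc and 1 between KO and WT with HU. Leaving out genes under 5 CPM in any library removes Aldh1l2 in the HU experiment, which gave 0 of the 9 for untreated KO against WT, 1 for HU in KO and 1 for KO against WT with HU. Under that filter Psat1 (Myc in WT, 0.023), Shmt1 (the interaction in KO2, -0.017) and Phgdh (untreated KO against WT, -0.00030) changed sign while uncalled. Low counts of the HU table are mostly even (71.9% of counts from 1 to 50), and dividing its counts by 2 gave 0 of the 9 for untreated KO against WT and 1 for HU in KO. Replicate numbers were not used as pairs in the main fit, and same-numbered libraries did not deviate in a common direction across groups. Deviations of same-numbered libraries from their group means correlated at -0.355 to 0.485 over 15 pairs of groups in the Myc experiment. Of these, 4 were above 0.1 and 2 below -0.1. WT Myc deviated with KO1 Myc (0.485) and against KO2 Myc (-0.355). In the HU experiment the 6 pairs ran from -0.025 to 0.088. The replicate block gave 2 of the 9 in place of 1 for untreated KO against WT, with Shmt1 added, and changed no other call among the 9. Over all genes it gave 791 called in place of 626 in that comparison. For the changes named here the cause was not tested, apart from those that the alternative itself makes. The depth of the HU experiment limits Aldh1l2 most, at 3 to 26 counts in untreated cells.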
